A study of Homo sapiens with 24 samples.

Results

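Transcriptome data of A2780 cells were examined 12 h after the addition of 1 μM 5-FdU-ECyd. The comparison rests on 6 of the 24 libraries of the series, 3 from treated cells and 3 from untreated cells harvested at the same time, which were chosen by their labels alone. A2780 is a platinum-sensitive human ovarian cancer cell line, and the treated and untreated cells share its genotype and the serum-containing medium, which was exchanged in both groups when the drug was added. Total RNA was extracted, converted into TruSeq stranded total RNA libraries and sequenced. The replicates are labelled as triplicates of 1 line, without a word on separate passages or days. The p-values rest on an estimate of the spread within groups that is shared by all 24 libraries of the series. Of 63299 genes in the table, 20240 had enough counts to be tested. Libraries of the platinum-resistant derivative A2780cis, kept resistant by periodic passages with cisplatin, and of A2780 after 6 h (3 treated and 3 untreated each) serve below to show where the response differed. All libraries outside the comparison also enter the shared estimate of the spread, and the untreated A2780 libraries of 6 h serve to group genes by level.

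5-FdU-ECyd is a duplex drug that joins a fluorinated deoxyuridine to ethynylcytidine. The fluorinated part is converted into an inhibitor of thymidylate synthase, which makes the thymidine nucleotide needed for DNA synthesis. Ethynylcytidine is activated by uridine-cytidine kinase and, as a triphosphate, inhibits RNA polymerases. Damage to DNA and a block of RNA synthesis both stabilize p53, a transcription factor whose targets halt the cell cycle, repair DNA and promote apoptosis. Transcripts with a short half-life fall first when transcription stops, and long genes need the longest time to be transcribed from end to end.

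Between 15253875 and 19283327 counts were assigned to genes in the untreated libraries and between 12743219 and 17369322 in the treated ones, and the Spearman correlation of log2 CPM (counts scaled to a common library total) was at least 0.988 within the groups and at most 0.957 between them. The 10 most abundant genes held between 6.60% and 6.75% of the counts in the untreated and between 8.07% and 8.50% in the treated libraries, and genes of the mitochondrial genome between 6.31% and 6.54% and between 8.32% and 8.85%. Treated replicate 1 stood apart in GC-rich genes, taken from protein-coding genes above a limit of mean level. Those with at least 60% GC in their longest transcript lay at a median of -0.34 on the log2 scale relative to the mean of the controls, against -0.0013 and 0.056 in replicates 2 and 3. Transcripts from the rRNA repeats took between 0.00137% and 0.0410% of the counts in the untreated and between 0.00155% and 0.0355% in the treated libraries, without following the treatment. The label of the cells was set against their markers. The epithelial and ovarian markers KRT7 and WT1 had no count in the 6 libraries and CDH1, PAX8, MUC16, ESR1, KRT19 and MSLN at most 8 in any of them, while KRT18, KRT8, EPCAM and FOLR1 were tested, with means between 0.604 and 1.81 CPM in the untreated cells. The mesenchymal filament gene VIM had a mean of 2367 CPM in the untreated cells. PTPRC, CD3E, CD14 and PECAM1, markers of blood and endothelial cells, had at most 1 count. The fibroblast markers COL1A1, COL1A2 and DCN were tested, with means of 8.38, 57.2 and 7.54 CPM in the untreated cells.

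Of the genes tested, 54.8% passed the threshold of an adjusted p-value of 0.05 (quasi-likelihood test of edgeR, adjusted by Benjamini-Hochberg, used throughout), 28.6% being higher and 26.1% lower in the treated cells, shares against which the gene lists below are read. The median log2 fold change (FC, treated against untreated) of all tested genes was 0.02, and an absolute log2 FC of at least 2 together with the threshold was reached by 4.77%. The CPM of the 2 groups did not overlap in 12957 of the 20240 genes tested, so that a lack of overlap, given below for single genes, was common. Levels are shares of the sequenced RNA, normalized by TMM. Fewer cells with a transcript and less of it per cell cannot be told apart, and a change in the total RNA per cell cannot be seen. Scaling by library size alone raised the median to 0.24 and the higher share of the called genes from 52.3% to 70.7%, and directions are given relative to the median under TMM.

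The response ran along the level, the length and the exon number of the genes. Protein-coding genes were grouped by their mean in the untreated A2780 cells of 6 h, libraries that did not enter the comparison. Of 2109 genes with between 100 and 1000 CPM, 143 were called higher and 1320 lower (median log2 FC = -0.40). Of 93 genes with at least 1000 CPM, 1 was called higher and 57 lower (-0.53). Genes with between 1 and 10 CPM went the other way, with 1278 higher and 613 lower of 3316 (0.22). Genes below 1 CPM could pass the filter through the groups in which they are high, and their shares are not given. By length, 1033 protein-coding genes that span at least 200 kb had a median of -0.53 with 109 higher and 602 lower, and they made up 55 of the 108 protein-coding genes that fell by 2 or more on the log2 scale. Genes of 10 to 20 kb had a median of 0.11 with 786 higher and 490 lower of 2307. The median fell from 0.29 in 322 genes with a single annotated exon to -0.29 in 2111 genes with at least 20 exons. With genes of at least 1 CPM alone, the medians were -0.55 for at least 200 kb and 0.07 for 10 to 20 kb. The order by length was present within each of 6 classes of GC content, formed from protein-coding genes above a limit of mean level. There, genes of at least 200 kb had medians between -0.94 (14 genes) and -0.44 (74 genes), and genes shorter than 20 kb between -0.08 and 0.06. These genes are not independent replicates, and the values are given as a description.

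**Figure D1:**
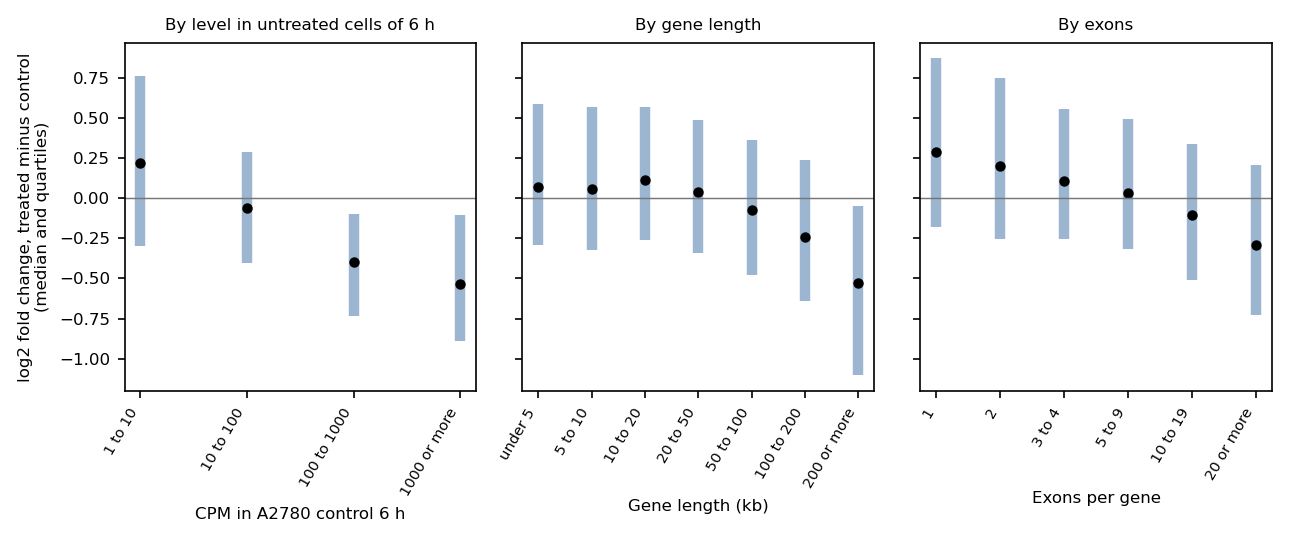
Log2 FC of protein-coding genes after 12 h in A2780 (vertical axis) by their mean CPM in the untreated A2780 cells of 6 h, by gene length in kb and by the number of annotated exons. Points are medians and bars the range between the quartiles. The median goes from 0.22 to -0.53 with rising level, and it is lowest, at -0.53, for genes of at least 200 kb and, at -0.29, for genes with at least 20 exons.

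The largest increases among well-expressed genes belonged to regulators of signaling, growth and polyamine metabolism. PDE4C, a cyclic AMP phosphodiesterase (ENSG00000105650.21, chromosome 19 from 18207965 to 18248200), had 4.82, 4.34 and 5.45 CPM without and 105, 118 and 109 CPM with treatment (log2 FC = 4.50, SE 0.15, adjusted p = 1.04e-17). BTG2, an antiproliferative gene and p53 target (ENSG00000159388.5, chromosome 1 from 203305491 to 203309602), had 25.5, 25 and 29.2 CPM against 385, 390.3 and 382 CPM (log2 FC = 3.86, SE 0.12, adjusted p = 2.29e-18). The groups lay far apart for both genes, and the spread within each group was small. GDF15, a secreted stress cytokine (ENSG00000130513.6, chromosome 19 from 18374731 to 18389176), had 3.37, 4.63 and 4.73 CPM against 61, 70.7 and 79.1 CPM (log2 FC = 4.04, SE 0.18, adjusted p = 2.85e-15). SAT1, the rate-limiting enzyme of polyamine breakdown (ENSG00000130066.16, chromosome X from 23783173 to 23786210), had 6.14, 4.75 and 4.57 CPM against 67, 59.5 and 57.3 CPM (log2 FC = 3.58, SE 0.15, adjusted p = 1.09e-15). No treated value came near an untreated one. TP53INP1, which promotes p53-dependent death and autophagy, had 11.6, 12.3 and 11.4 CPM against 145, 135 and 131 CPM (log2 FC = 3.54, SE 0.13, adjusted p = 4.74e-17). KCTD11, an inhibitor of Hedgehog signaling, had 10.8, 11.7 and 12.2 CPM against 116, 116 and 122 CPM (log2 FC = 3.35, SE 0.15, adjusted p = 2.16e-15). The remaining members of the 10 largest increases, TP53I3, TP53I11, GADD45A and the stress kinase PLK3, had log2 FC between 3.14 and 3.49.

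The largest decreases were held by adhesion and guidance molecules of neurons, by a chaperone and by genes of mitosis and ribosome assembly. NLGN4X, a synaptic adhesion molecule (ENSG00000146938.14, chromosome X from 5840637 to 6228867), had 54.1, 56.2 and 50.8 CPM in the untreated and 7.29, 5.91 and 5.34 CPM in the treated libraries (log2 FC = -3.13, SE 0.11, adjusted p = 2.35e-17). ANK3, which encodes the membrane scaffold ankyrin-G (ENSG00000151150.21, chromosome 10 from 60026298 to 60733490), had 160.2, 153 and 139.5 CPM against 24.1, 20.7 and 22 CPM (log2 FC = -2.76, SE 0.12, adjusted p = 1.11e-15). Neither gene had overlapping groups, and both span long stretches of the genome. The ephrin receptors EPHA7 and EPHA3 had log2 FC of -2.74 and -2.41, and the glutamate receptor subunit GRIK1 of -2.41. SAPCD2, a regulator of spindle orientation (ENSG00000186193.8, chromosome 9 from 137062127 to 137070557), had 58.5, 59.99 and 67.6 CPM against 7.99, 8.45 and 10.4 CPM (log2 FC = -2.79, SE 0.18, adjusted p = 2.00e-12), without overlap in a gene of only several kb. HSPA8 and SLIT2 had the lowest values of the 10, -3.45 and -3.36, and BOP1 and PLK1 are described with their groups.

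**Figure D2:**
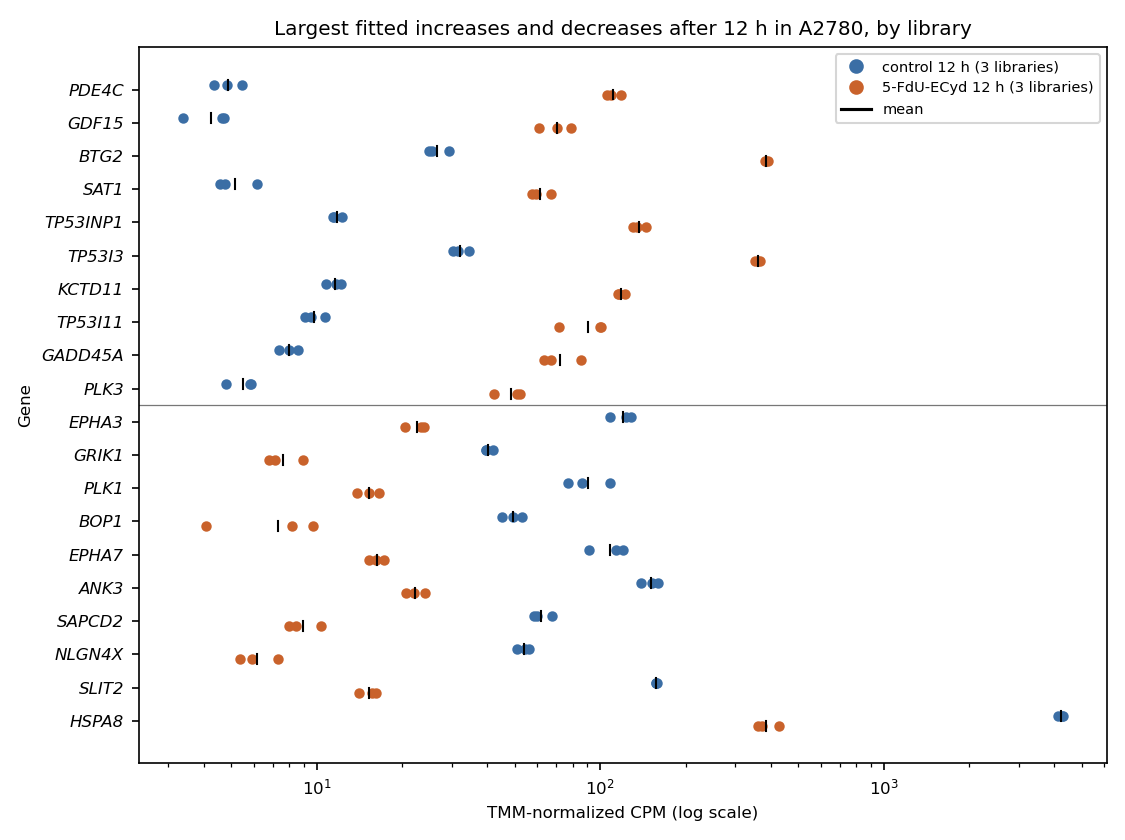
TMM-normalized CPM (horizontal, log scale) in each of the 3 untreated (blue) and 3 treated (orange) A2780 libraries of 12 h for 10 genes with the highest and 10 with the lowest log2 FC of those called, given non-overlapping groups and an average log2 CPM of 4 or more. Black bars are means. The groups are apart in all 20 genes, which were picked for it, and the widest spread within a group is that of BOP1, with 4.06, 8.16 and 9.72 CPM in the treated libraries.

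The groups of genes that follow are lists written by hand from gene names, with earlier results of these data known. For each list the members called are read against the shares of the transcriptome, 28.6% higher and 26.1% lower.

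**Figure D3:**
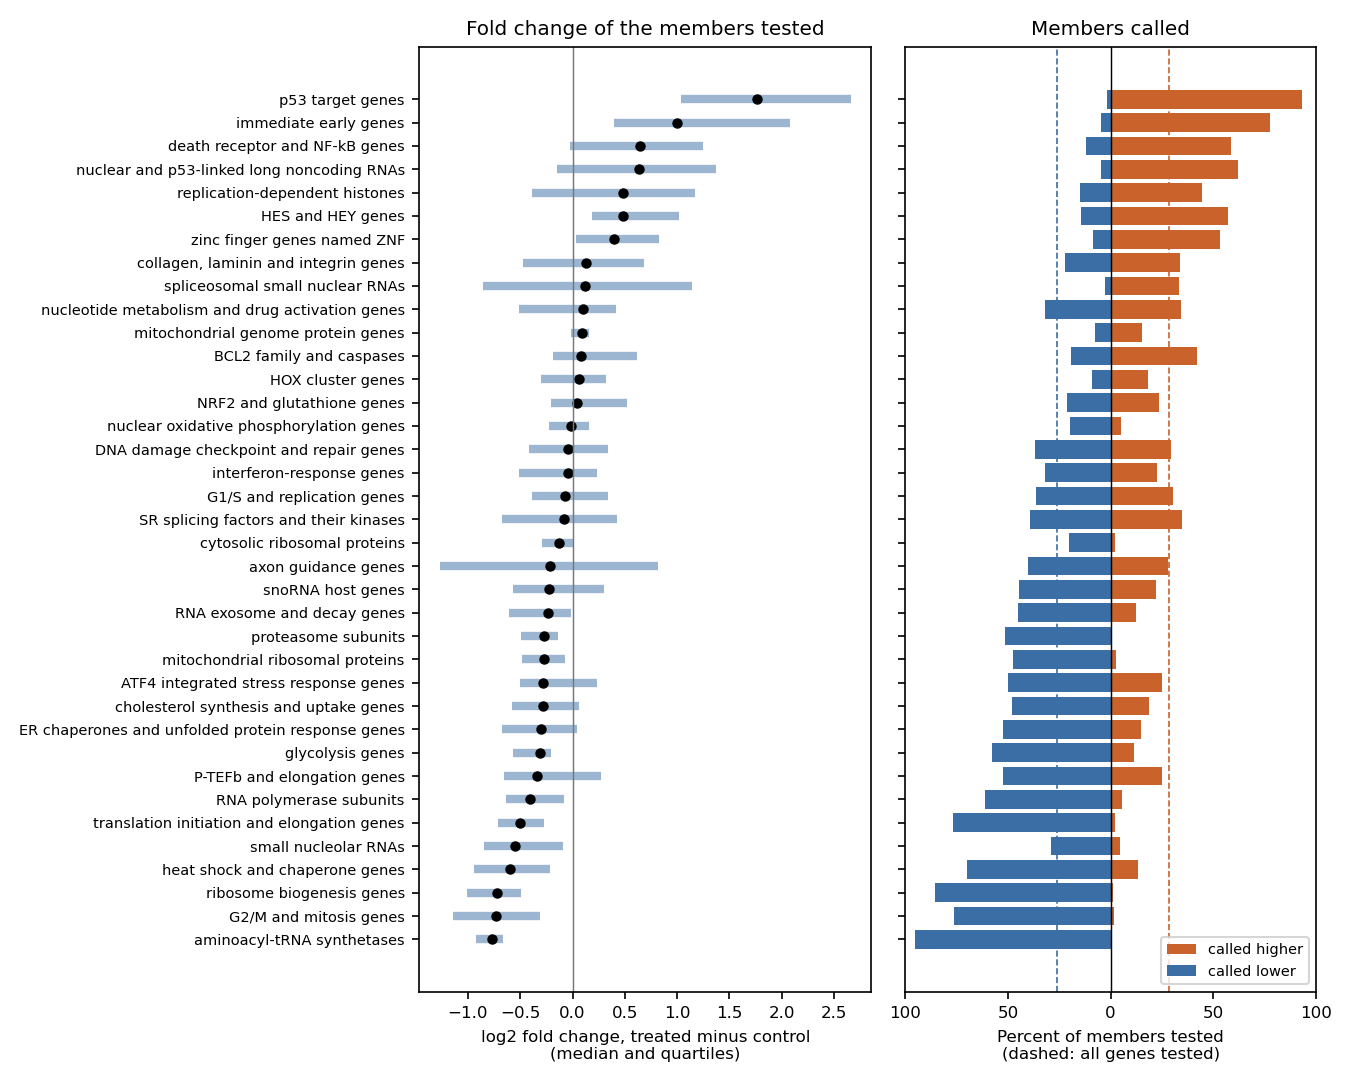
Log2 FC after 12 h in A2780 over the members tested of 37 gene lists, as median (point) and range between the quartiles (bar, left), and the percentage of members called higher (orange) and lower (blue, right), with all genes tested as dashed lines. The medians run from 1.76 for p53 target genes to -0.77 for aminoacyl-tRNA synthetases.

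Genes that p53 switches on were higher nearly throughout. Of 57 p53 target genes tested, 53 were called higher and 1 lower, with a median log2 FC of 1.76, and 45 were higher by more than 1 on the log2 scale. Summed over the list, the level was 2168, 2147 and 2094 CPM in the untreated and 6265, 6059.6 and 6076 CPM in the treated libraries. The treated sums lay far above the untreated ones, and the libraries of a group were nearly equal. The most abundant member, CCNG1 (cyclin G), had 250.1, 240.1 and 212 CPM against 414, 339 and 349 CPM (log2 FC = 0.65, SE 0.12, adjusted p = 3.91e-05). The 1 member called lower was ASCC3, a helicase of alkylation repair with 161, 159.9 and 137 CPM against 107, 98.9 and 103 CPM (log2 FC = -0.57, SE 0.10, adjusted p = 3.62e-05). Neither gene had overlapping groups.

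Immediate early genes, which respond within minutes to growth factors or stress and have short-lived mRNAs, were also mostly higher, with 35 called higher and 2 lower of 45 tested (median log2 FC = 1.00). ARC, a regulator of synaptic signaling, had 0.198, 0.463 and 0.411 CPM in the untreated and 7.22, 9.09 and 11.2 CPM in the treated libraries (log2 FC = 4.63, SE 0.34, adjusted p = 2.83e-11). The change was large and the level stayed low. The 2 members called lower were DUSP16, a phosphatase of stress kinases (log2 FC = -0.40, SE 0.10, adjusted p = 9.60e-04), and the transcription factor KLF6 (log2 FC = -0.31, SE 0.12, adjusted p = 0.0338). In KLF6 the groups lay only a few CPM apart, at 21.5, 23 and 23.3 CPM against 19.7, 17.4 and 17.8 CPM, and the call was lost when scaled by library size alone (-0.09, adjusted p = 0.584) and when untreated replicate 2 or 3 or treated replicate 2 or 3 was left out (adjusted p between 0.0781 and 0.105). That of DUSP16 was lost by library size alone (-0.18, adjusted p = 0.135).

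Of 34 genes of death receptors and of the NF-kB pathway, 20 were called higher and 4 lower (median log2 FC = 0.64). FAS, a death receptor, had 12, 10.9 and 7.60 CPM in the untreated and 75.2, 65.6 and 64.3 CPM in the treated libraries (log2 FC = 2.75, SE 0.14, adjusted p = 1.54e-14). BIRC3, an inhibitor of apoptosis and NF-kB target, had 2.71, 2.95 and 2.00 CPM against 22.7, 18.7 and 22.6 CPM (log2 FC = 3.06, SE 0.17, adjusted p = 9.28e-14). TNFAIP3, a feedback inhibitor of NF-kB, had 0.594, 0.521 and 0.565 CPM against 4.76, 3.86 and 3.69 CPM (log2 FC = 2.85, SE 0.23, adjusted p = 1.58e-10). A death receptor and 2 inhibitors of death or inflammation rose side by side, all without overlap. TNFRSF10B, the most abundant receptor of the list, rose less, from 169.5, 176 and 181 CPM to 316, 309 and 301 CPM (log2 FC = 0.81, SE 0.08, adjusted p = 4.71e-09). Called lower were among others the death receptor TNFRSF21 (log2 FC = -0.87, SE 0.19, adjusted p = 4.48e-04) and the adaptor TRAF2 (log2 FC = -0.82, SE 0.18, adjusted p = 3.63e-04), the latter with 10.9, 13.4 and 17.1 CPM in the treated libraries, lowest in replicate 1. Of 31 members of the BCL2 family and caspases, 13 were called higher and 6 lower, with a median near that of all genes (0.08). CASP10, an initiator caspase of death receptors, had 2.57, 1.39 and 2.67 CPM against 10.2, 12 and 11.9 CPM (log2 FC = 2.36, SE 0.17, adjusted p = 1.07e-11). MCL1, an antiapoptotic protein with the highest level of the family, had 452, 442 and 431 CPM against 663, 582 and 577 CPM (log2 FC = 0.46, SE 0.09, adjusted p = 1.66e-04). The proapoptotic members HRK (log2 FC = -1.61, SE 0.30, adjusted p = 5.93e-05) and BOK (log2 FC = -1.10, SE 0.20, adjusted p = 5.93e-05) fell, whereas PMAIP1, also proapoptotic, had a log2 FC of 2.90, so that such members moved in both directions.

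The cell cycle lists separated by phase. Of 69 genes of G1/S and DNA replication, 21 were called higher and 25 lower (median log2 FC = -0.07), which is close to the shares of all genes. E2F7, a repressor of E2F targets and itself a p53 target, had 40.2, 39.9 and 42.1 CPM in the untreated and 151, 153 and 145 CPM in the treated libraries (log2 FC = 1.88, SE 0.10, adjusted p = 1.02e-13). MCM6, a subunit of the replicative helicase, had 307, 303 and 282 CPM against 159, 137 and 134 CPM (log2 FC = -1.05, SE 0.10, adjusted p = 1.22e-09), and CCND2, a D-type cyclin and the most abundant member, had 1129.8, 1066 and 1182 CPM against 646, 611 and 566 CPM (log2 FC = -0.89, SE 0.08, adjusted p = 1.47e-09). These 3 genes had no overlap between the groups, in either direction. Of 67 genes of G2/M and mitosis, 1 was called higher and 51 lower (median log2 FC = -0.73). PLK1, the mitotic kinase, had 77, 86 and 108 CPM against 13.9, 15.3 and 16.6 CPM (log2 FC = -2.56, SE 0.15, adjusted p = 4.70e-13). CDC20, an activator of the anaphase-promoting complex, had 112, 117 and 143 CPM against 34.4, 35.3 and 32.9 CPM (log2 FC = -1.86, SE 0.11, adjusted p = 3.85e-13). The lowest untreated value was far above the highest treated one in both. TOP2A, the topoisomerase of chromosome condensation and the most abundant member, had 694, 665 and 514 CPM against 305, 271 and 281 CPM (log2 FC = -1.13, SE 0.12, adjusted p = 9.37e-09). The single member called higher was SPC24, a kinetochore protein (log2 FC = 0.76, SE 0.10, adjusted p = 8.37e-07).

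Promoters of G2/M genes are known for the CHR element, through which the DREAM complex represses them after p53 activation. The RefSeq promoters of 2 genes of the list that fell are printed to show the element, as the last 150 bases before the start site in GRCh38.p14, with the letters TTTGAA or its reverse complement in capitals (PLK1 at chr16:23678739-23678888 on the plus strand, CDC20 at chr1:43358831-43358980 on the plus strand).
PLK1: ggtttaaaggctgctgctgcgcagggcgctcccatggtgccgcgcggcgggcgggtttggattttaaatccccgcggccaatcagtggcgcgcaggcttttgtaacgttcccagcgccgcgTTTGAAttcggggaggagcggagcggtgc
CDC20: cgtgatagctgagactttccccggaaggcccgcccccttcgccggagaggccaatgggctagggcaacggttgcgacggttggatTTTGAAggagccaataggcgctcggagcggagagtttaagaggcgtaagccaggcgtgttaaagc
The element begins 29 bases before the start of PLK1 and 65 bases before that of CDC20. In the 300 bases around the start (250 before and 50 after, both strands) it was found in 37 of the 57 G2/M genes with a promoter in the table (64.9%), in 31 of the 45 that were called lower (68.9%), and in 9.91% of 11019 promoters of tested protein-coding genes and 15.4% of all 27305. CCAAT, the box that binds NF-Y, was found in 75.4% of the 57 against 36.5% and 35.7%. A match is a description of the letters and no evidence that the site was bound in these cells.

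Genes of DNA repair and of nucleotide metabolism, the pathway the drug enters, had no common direction. Of 68 genes of the DNA damage checkpoint and repair, 20 were called higher and 25 lower (median log2 FC = -0.04). RAD51C, a protein of homologous recombination, had 37.8, 36 and 31.5 CPM against 80.4, 74.6 and 71.8 CPM (log2 FC = 1.11, SE 0.13, adjusted p = 8.02e-08), and RAD51B, of the same pathway, had 4.16, 4.75 and 4.88 CPM against 2.10, 1.81 and 2.04 CPM (log2 FC = -1.22, SE 0.16, adjusted p = 5.60e-07). The 2 genes moved in opposite directions, each without overlap. APEX1, the endonuclease of base excision repair, had 286, 261 and 282 CPM against 145, 129 and 136 CPM (log2 FC = -1.01, SE 0.11, adjusted p = 2.30e-08). Of 41 genes of nucleotide metabolism and drug activation, 14 were called higher and 13 lower (0.10). UCK1, a uridine-cytidine kinase, had 22.1, 24.5 and 23.9 CPM in the untreated and 48.7, 50.4 and 49.7 CPM in the treated libraries (log2 FC = 1.08, SE 0.10, adjusted p = 1.08e-09). SLC29A2, an equilibrative nucleoside transporter, had 55.8, 53.5 and 55.3 CPM against 21.8, 23.1 and 24 CPM (log2 FC = -1.25, SE 0.14, adjusted p = 2.15e-08). DPYD, which degrades fluorinated uracil, had 16.7, 16.3 and 13.8 CPM against 5.04, 3.76 and 5.15 CPM (log2 FC = -1.75, SE 0.15, adjusted p = 3.89e-10). UCK1 rose while SLC29A2 and DPYD fell, members named for the size of their change in a list without a common direction. RRM2B, the p53-induced subunit of ribonucleotide reductase, had a log2 FC of 1.88, and MTHFD2, the mitochondrial folate enzyme with the highest level of the list, of -0.37, which was -0.15 with an adjusted p of 0.0606 when scaled by library size alone.

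Of 36 RNA polymerase subunits, 2 were called higher and 22 lower (median log2 FC = -0.41). POLR2B, the second largest subunit of RNA polymerase II, had 305, 298 and 282 CPM in the untreated and 147, 123 and 126 CPM in the treated libraries (log2 FC = -1.16, SE 0.11, adjusted p = 1.34e-09), whereas POLR2A, the largest, had 225, 254 and 311 CPM against 179, 222 and 220.4 CPM and did not pass the threshold (log2 FC = -0.35, SE 0.19, adjusted p = 0.123). Among the 2 alternative subunits of RNA polymerase III, POLR3G fell (log2 FC = -1.27, SE 0.15, adjusted p = 8.29e-08) and POLR3GL rose (log2 FC = 1.58, SE 0.15, adjusted p = 3.41e-09). POLR3GL had 8.91, 7.41 and 8.53 CPM against 26.3, 24.5 and 23.7 CPM, and POLR3G had 31.3, 29.5 and 24 CPM against 12.8, 11.4 and 11 CPM, so that neither overlapped. Of 40 genes of P-TEFb and elongation, 10 were called higher and 21 lower (-0.34). The elongation factors ELL2 and ELL3 had log2 FC of 2.35 and 1.48, against -1.43 for CDK12, the kinase that sustains elongation through long genes, and -2.20 for MLLT3, a member of the super elongation complex. CDK12 had 136, 151 and 155 CPM against 52.5, 55.1 and 56.3 CPM. Of 23 SR splicing factors and their kinases, 8 were called higher and 9 lower (-0.08), among them SRSF3 with 624, 582 and 560.0 CPM against 235, 207 and 221 CPM (log2 FC = -1.41, SE 0.12, adjusted p = 2.44e-10) and the muscle kinase SRPK3 with 1.25, 1.39 and 1.54 CPM against 8.97, 11.1 and 10.7 CPM (log2 FC = 2.87, SE 0.25, adjusted p = 3.64e-10). Of 49 genes of the RNA exosome and of mRNA decay, 6 were called higher and 22 lower (-0.24). CNOT1, the scaffold of the deadenylase complex and the most abundant of them, had 513, 552 and 509 CPM against 187, 188 and 183 CPM (log2 FC = -1.50, SE 0.11, adjusted p = 1.57e-11).

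Most genes for making ribosomes fell, and most genes for ribosomal proteins did not pass the threshold. Of 98 ribosome biogenesis genes, 1 was called higher and 84 lower (median log2 FC = -0.72). NPM1, the nucleolar protein nucleophosmin, had 3222, 3098 and 2706 CPM in the untreated and 1508, 1184 and 1164 CPM in the treated libraries (log2 FC = -1.23, SE 0.14, adjusted p = 3.52e-08). UTP20, a component of the small subunit processome, had 176, 171 and 148 CPM against 47.4, 41.8 and 46.4 CPM (log2 FC = -1.87, SE 0.11, adjusted p = 6.95e-13). Both fell without overlap. BOP1, a factor of large subunit maturation, had 45.1, 53.2 and 49.2 CPM against 4.06, 8.16 and 9.72 CPM (log2 FC = -2.72, SE 0.31, adjusted p = 4.04e-08), with the lowest value in treated replicate 1, the library low in GC-rich genes. Without that library its log2 FC was -2.47. The single gene called higher was UTP3, another processome component (log2 FC = 0.35, SE 0.10, adjusted p = 0.00333). The letters CACGTG, an E-box bound by MYC, were found in the 300-base promoters of 31 of 84 biogenesis genes (36.9%), against 9.98% of the promoters of tested protein-coding genes and 7.43% of all. Of 21 cytosolic aminoacyl-tRNA synthetases, 20 were called lower and none higher (-0.77). WARS1, the tryptophanyl-tRNA synthetase, had 653, 659.8 and 637 CPM against 299.9, 293 and 272 CPM (log2 FC = -1.17, SE 0.09, adjusted p = 1.68e-11). Of 47 genes of translation initiation and elongation, 1 was called higher and 36 lower (-0.50), and EIF3A, a subunit of initiation factor 3, had 747.5, 729 and 622 CPM against 264, 234 and 230.2 CPM (log2 FC = -1.53, SE 0.09, adjusted p = 4.70e-13). EEF1A1, the elongation factor with the highest level of these genes, had 8847, 8379 and 8680.2 CPM against 7868, 6849 and 6951 CPM and did not pass the threshold (log2 FC = -0.26, SE 0.13, adjusted p = 0.0996).

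Of 84 genes of cytosolic ribosomal proteins, 2 were called higher and 17 lower (median log2 FC = -0.13), both below the shares of all genes. RPL4, the most abundant, had 2112, 1987 and 2105 CPM in the untreated and 1479, 1315 and 1352 CPM in the treated libraries (log2 FC = -0.58, SE 0.13, adjusted p = 4.97e-04), and RPS27L, a p53-inducible paralog of a ribosomal protein, had 87.5, 84.4 and 80.5 CPM against 254, 226 and 228 CPM (log2 FC = 1.49, SE 0.12, adjusted p = 2.44e-10). RPL22L1, another paralog, fell (log2 FC = -1.19, SE 0.16, adjusted p = 6.55e-07). Ribosomal protein genes share sequence with many pseudogenes, and reads with several alignments were split, so their values are uncertain to that extent. Of 78 mitochondrial ribosomal proteins, 2 were called higher and 37 lower (-0.28). MRPL12 had 69.97, 65 and 72 CPM against 18.3, 20.2 and 22.2 CPM (log2 FC = -1.77, SE 0.15, adjusted p = 2.74e-10), and MRPL49 had 63.6, 69.4 and 73.4 CPM against 168, 163 and 155 CPM (log2 FC = 1.23, SE 0.09, adjusted p = 8.15e-12). Neither overlapped, and they mark the extremes of the list. Of 76 nuclear genes of oxidative phosphorylation, 4 were called higher and 15 lower (-0.01), and of the 13 protein genes of the mitochondrial genome 2 higher and 1 lower (0.09). MT-CO1, the most abundant transcript of these libraries, had 15258, 15015 and 13291 CPM against 19555, 18562 and 16901 CPM (log2 FC = 0.34, SE 0.10, adjusted p = 0.00604). Without untreated replicate 3, its log2 FC was 0.27 with an adjusted p of 0.0509. MT-RNR2, the large mitochondrial rRNA, had 4271, 4526 and 5037 CPM against 8061, 7346 and 7415 CPM (log2 FC = 0.72, SE 0.16, adjusted p = 4.97e-04). Of 37 proteasome subunits, none was called higher and 19 lower (-0.27), with PSMD1, a scaffold of the regulatory particle, at 527, 522 and 472 CPM against 201, 182 and 176 CPM (log2 FC = -1.44, SE 0.11, adjusted p = 3.99e-11).

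Heat shock and chaperone genes were mostly lower as well. Of 60 heat shock and chaperone genes, 8 were called higher and 42 lower (median log2 FC = -0.60), and their summed level was 26499.8, 26122 and 24390.4 CPM in the untreated against 13905, 12124 and 11939.5 CPM in the treated libraries. The treated sums lay below every untreated one and close to each other. HSPA8, the constitutive HSP70 chaperone, had 4265, 4113 and 4290.2 CPM against 426, 360.0 and 371 CPM (log2 FC = -3.45, SE 0.13, adjusted p = 1.43e-16). HSP90AB1, the constitutive HSP90, had 3292, 3384 and 3034 CPM against 1729, 1511 and 1415 CPM (log2 FC = -1.06, SE 0.10, adjusted p = 2.03e-09). HSPH1, a nucleotide exchange factor of HSP70, had 536, 520.3 and 449 CPM against 159.9, 144 and 134 CPM (log2 FC = -1.78, SE 0.10, adjusted p = 7.14e-14). All 3 fell without overlap. DNAJB5, a cochaperone, rose with 4.29, 4.92 and 5.09 CPM against 30.8, 31.5 and 35.7 CPM (log2 FC = 2.77, SE 0.13, adjusted p = 2.91e-15). The last 150 bases before the RefSeq start site of HSPA8 (chr11:123062137-123062286 in GRCh38.p14, minus strand) are printed because this gene had the lowest log2 FC of the well-expressed genes, with the heat shock element core, GAANNTTC or TTCNNGAA, in capitals.
HSPA8: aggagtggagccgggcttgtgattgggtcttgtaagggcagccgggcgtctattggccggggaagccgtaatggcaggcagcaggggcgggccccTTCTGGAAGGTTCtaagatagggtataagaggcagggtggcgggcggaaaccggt
The capitals hold 2 overlapping matches, 55 and 50 bases before the start. The core was found in 28.3% of the 53 promoters of the list and in 33.3% of the 36 of genes called lower, against 10.1% of the promoters of tested protein-coding genes and 13.7% of all promoters.

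Of 40 genes of ER chaperones and the unfolded protein response, 6 were called higher and 21 lower (median log2 FC = -0.30). Scaled by library size alone, 12 were higher and 16 lower (-0.08). HSPA5, the ER chaperone BiP, had 1041, 1061 and 1012 CPM in the untreated and 406, 359.7 and 345 CPM in the treated libraries (log2 FC = -1.49, SE 0.09, adjusted p = 9.30e-13). Of 32 genes of the ATF4 branch of the integrated stress response, 8 were called higher and 16 lower (-0.28). With library size alone, 11 were higher and 11 lower (-0.06), so that the direction of this list rests on the scaling. PSAT1, an enzyme of serine synthesis, had 827, 859 and 819.8 CPM against 433, 361 and 342 CPM (log2 FC = -1.14, SE 0.09, adjusted p = 1.23e-10), and the amino acid transporter SLC7A5 had 319, 364 and 384 CPM against 104, 152 and 153 CPM (log2 FC = -1.38, SE 0.17, adjusted p = 2.77e-07). NUPR1, a stress-induced chromatin protein, had 21.8, 21.7 and 23.6 CPM against 72, 78.1 and 86 CPM (log2 FC = 1.81, SE 0.14, adjusted p = 3.99e-11). PPP1R15A, which returns eIF2α to its active form, had 8.38, 8.45 and 9.30 CPM against 25.2, 26.9 and 25.9 CPM (log2 FC = 1.57, SE 0.12, adjusted p = 7.73e-11). PSAT1 and SLC7A5 fell and NUPR1 and PPP1R15A rose, all without overlap.

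In metabolism, 15 of 26 glycolysis genes were called lower and 3 higher (median log2 FC = -0.31). HK2, a hexokinase, had 85.1, 90.7 and 97.4 CPM in the untreated and 19.9, 22.9 and 19.9 CPM in the treated libraries (log2 FC = -2.12, SE 0.11, adjusted p = 1.77e-14), and SLC2A1, the glucose transporter GLUT1, had 37.2, 41.8 and 47.6 CPM against 16.6, 18.3 and 17.8 CPM (log2 FC = -1.26, SE 0.13, adjusted p = 1.71e-08). TIGAR, a p53 target that lowers glycolytic flux, had 92.5, 88.9 and 86 CPM against 131, 119.7 and 118 CPM (log2 FC = 0.46, SE 0.09, adjusted p = 7.60e-05). The first steps of glucose use fell while TIGAR rose. Of 27 genes of cholesterol synthesis and uptake, 5 were called higher and 13 lower (-0.29). STARD4, a sterol carrier, had 72.3, 69.4 and 59.4 CPM against 146, 115 and 115 CPM (log2 FC = 0.91, SE 0.15, adjusted p = 1.27e-05). Of 38 NRF2 and glutathione genes, 9 were called higher and 8 lower (0.04), with TXNIP, an inhibitor of thioredoxin (log2 FC = 1.83, SE 0.19, adjusted p = 8.34e-09), and TXNRD1, thioredoxin reductase (log2 FC = -1.02, SE 0.09, adjusted p = 1.47e-09), moving apart. Of 44 interferon-response genes, 10 were called higher and 14 lower (-0.04). TLR3, a sensor of double-stranded RNA, had 22, 19.5 and 16.9 CPM against 63.8, 59.5 and 66.5 CPM (log2 FC = 1.70, SE 0.15, adjusted p = 4.45e-10), and rose without overlap.

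Of 57 axon guidance genes, 16 were called higher and 23 lower, with quartiles of log2 FC at -1.27 and 0.82, against -0.43 and 0.55 for all genes tested, and a median of -0.22, which was 0.01 when scaled by library size alone. PLXNB3, a semaphorin receptor, had 0.264, 0.232 and 0.308 CPM in the untreated and 11.8, 19.7 and 21.2 CPM in the treated libraries (log2 FC = 5.99, SE 0.40, adjusted p = 4.09e-12). UNC5C, a netrin receptor, had 14.3, 15.2 and 14.6 CPM against 2.59, 1.86 and 1.80 CPM (log2 FC = -2.84, SE 0.18, adjusted p = 9.34e-11), and ROBO1, a SLIT receptor and the most abundant member, had 136, 139 and 143 CPM against 47.7, 49.8 and 48.3 CPM (log2 FC = -1.52, SE 0.12, adjusted p = 1.63e-10). The receptor that rose started near the detection limit, and those that fell were well expressed. Of 50 genes of collagens, laminins and integrins, 17 were called higher and 11 lower (0.12). ITGA3, a laminin receptor subunit, had 2.11, 3.07 and 2.72 CPM against 16.4, 25.1 and 25.2 CPM (log2 FC = 3.07, SE 0.19, adjusted p = 6.54e-13). VIM had 2276, 2286 and 2540.3 CPM against 935, 837 and 815 CPM (log2 FC = -1.46, SE 0.09, adjusted p = 1.99e-12), and CDH2, neural cadherin, had 44.2, 43.9 and 50.8 CPM against 14, 13.4 and 15.5 CPM (log2 FC = -1.69, SE 0.13, adjusted p = 3.00e-11). ZEB1, a repressor of epithelial genes, also fell (log2 FC = -0.98, SE 0.13, adjusted p = 3.61e-07). FN1, another mesenchymal marker, had a log2 FC of 0.30 and did not pass the threshold (adjusted p = 0.174), and of the 4 epithelial markers tested KRT18 rose (0.69, adjusted p = 0.00424). Of 22 HOX genes, 4 were called higher and 2 lower (0.06).

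Many zinc finger genes named ZNF encode repressors of the KRAB family, and part of them lie in clusters on chromosome 19. Of 445 such genes tested on all chromosomes, 237 were called higher (53.3%) and 39 lower (8.76%), with a median log2 FC of 0.40. ZNF506 had 3.63, 3.18 and 2.67 CPM in the untreated and 17.7, 19.7 and 22.2 CPM in the treated libraries (log2 FC = 2.66, SE 0.20, adjusted p = 3.93e-11), and ZNF785 had 1.06, 0.926 and 0.668 CPM against 4.90, 7.82 and 6.61 CPM (log2 FC = 2.89, SE 0.24, adjusted p = 1.82e-10). ZNF207, the most abundant and a protein of the mitotic spindle, had 370.1, 338 and 342 CPM against 191, 191 and 187 CPM (log2 FC = -0.88, SE 0.09, adjusted p = 1.63e-08). The first 2 were rare and rose, and the abundant one fell. Over the tested protein-coding genes of chromosome 19, 370 were called higher and 233 lower of 1105. The family is full of near-identical copies, between which the counting splits reads.

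Of 3440 lncRNA genes tested, 1369 had less than 1 CPM in the untreated A2780 cells of 6 h. Of 1601 with between 1 and 10 CPM there, 517 were called higher and 265 lower (median log2 FC = 0.13), beside 1278 and 613 of 3316 protein-coding genes of that level (0.22). Of 426 lncRNA genes with between 10 and 100 CPM, 114 were higher and 157 lower (-0.10), beside 1724 and 2190 of 6806 protein-coding genes (-0.06). The exons of 54.9% of the lncRNA genes overlap an exon of the other strand, and without a known strand setting of the counts their reads cannot be told from those of the partner. With between 1 and 10 CPM, the median was 0.03 for 984 such genes and 0.34 for the 617 others. NEAT1, the scaffold of paraspeckles, had 190.5, 173 and 161 CPM in the untreated and 602, 579 and 503 CPM in the treated libraries (log2 FC = 1.68, SE 0.15, adjusted p = 9.61e-10). LINC00641 had 33.7, 36.1 and 33.2 CPM against 7.85, 7.28 and 8.598 CPM (log2 FC = -2.12, SE 0.12, adjusted p = 2.03e-13). NEAT1 rose and LINC00641 fell, each without overlap. Of 21 nuclear and p53-linked lncRNAs, 13 were called higher and 1, DLEU2 (log2 FC = -1.002, SE 0.15, adjusted p = 3.04e-06), lower. Of 27 snoRNA host genes, 6 were called higher and 12 lower (-0.22), with SNHG7 at 54, 50.03 and 57.6 CPM against 15.2, 20.8 and 19.3 CPM (log2 FC = -1.54, SE 0.15, adjusted p = 5.67e-09). Of 172 small nucleolar RNAs, 8 were called higher and 50 lower (-0.55), and of 36 spliceosomal small nuclear RNAs 12 higher and 1 lower. For the small nuclear RNAs, 11 were higher and 13 lower without treated replicate 1, and 10 and 14 without a filter on low counts. Their summed level did not follow the groups, with 13, 77.5 and 51.7 CPM in the untreated and 79.8, 23.6 and 19.7 CPM in the treated libraries. These short RNAs are caught poorly by such libraries, and the small nuclear RNAs are copies with shared reads. Of 27 replication-dependent histone genes, whose mRNAs have no poly(A) tail, 12 were called higher and 4 lower, with a median of 0.48 that was 0.23 without untreated replicate 1, and their summed level was 118 CPM against 110.3 CPM in the mean. H4C9, the most abundant of them, fell (log2 FC = -1.10, SE 0.14, adjusted p = 3.14e-07), and H4C14 rose (log2 FC = 1.73, SE 0.18, adjusted p = 1.15e-08).

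Host genes of 2 known microRNA groups moved in opposite directions. MIR34AHG (ENSG00000228526.5, chromosome 1 from 9148011 to 9198906), the host of the p53-induced miR-34a, had 1.52, 1.27 and 1.64 CPM in the untreated and 6.17, 7.43 and 6.41 CPM in the treated libraries (log2 FC = 2.17, SE 0.28, adjusted p = 3.14e-07). MIR17HG (ENSG00000215417.11, chromosome 13 from 91347686 to 91397592), the host of the growth-promoting cluster of miR-17 to miR-92a that MYC and E2F activate, had 20.7, 20.7 and 15.6 CPM against 4.76, 5.13 and 3.74 CPM (log2 FC = -2.06, SE 0.19, adjusted p = 1.32e-09). The groups did not overlap in either. The mature guide strands inside these hosts (RefSeq, GRCh38.p14) are printed because the seed, bases 2 to 8 in capitals, sets which mRNAs a microRNA can pair with.
hsa-miR-34a-5p: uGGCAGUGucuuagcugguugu
hsa-miR-17-5p: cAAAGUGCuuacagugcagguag
hsa-miR-20a-5p: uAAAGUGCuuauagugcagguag
hsa-miR-18a-5p: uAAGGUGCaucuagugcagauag
hsa-miR-19a-3p: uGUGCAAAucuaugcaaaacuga
hsa-miR-19b-3p: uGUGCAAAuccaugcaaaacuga
hsa-miR-92a-3p: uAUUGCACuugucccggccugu
miR-17 and miR-20a share the seed AAAGUGC, and miR-19a and miR-19b the seed GUGCAAA, so that the 6 strands of the second host carry 4 seeds. The libraries count the host transcript and not the mature microRNAs.

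Genes just downstream of an activated gene on the same strand were inspected, since counts on exons do not show where a transcript began. Of the 807 genes called higher with a log2 FC of at least 2, 174 had a tested gene of the same strand ending within 10 kb upstream, and 50% of these upstream genes were themselves called higher, against 30.4% of the upstream genes of all 4226 such pairs and 16.0% of those of genes that fell as much (25 pairs). With 5 kb the shares were 53.2% and 30.1%, and with 20 kb 46.4% and 30.1%. Of the 807 genes, 465 were protein-coding. In the untreated A2780 cells of 6 h, 236 of these 465 had between 0.1 and 1 CPM, and 85 had less. Such genes could pass the filter through the groups in which they are high, and no set of equal level was compared. The shares are a description, and a link between neighbours was not tested. GRIN2C, a glutamate receptor subunit of neurons, begins 992 bases after FDXR, a p53 target of mitochondrial electron transfer. GRIN2C had 1.85, 1.80 and 1.03 CPM in the untreated and 19.3, 25 and 23.7 CPM in the treated libraries (log2 FC = 3.88, SE 0.26, adjusted p = 3.60e-12), and FDXR had 15.7, 13.3 and 14 CPM against 71.5, 99.1 and 100.4 CPM (log2 FC = 2.66, SE 0.17, adjusted p = 9.30e-13). Both rose, with the downstream gene at the lower level in either group. BTBD19 begins 2532 bases after PLK3 and had 0.198, 0.232 and 0.308 CPM against 14.6, 16.7 and 12.8 CPM (log2 FC = 5.83, SE 0.35, adjusted p = 4.44e-13), with 5.87, 4.81 and 5.81 CPM against 42.3, 52.1 and 50.9 CPM for PLK3. The lncRNA gene ENSG00000260912 begins 703 bases after ACER2, a ceramidase and p53 target, and had 2.44, 2.08 and 2.62 CPM against 24.3, 20.1 and 19.1 CPM (log2 FC = 3.14, SE 0.15, adjusted p = 5.14e-15), with 2.90, 2.61 and 2.67 CPM against 22.6, 21.5 and 23.4 CPM for ACER2. Its level followed that of the upstream gene in both groups. EID2B, CASP10 and GDF15 lie 5854, 6184 and 4780 bases after EID2, CFLAR and PGPEP1, which had log2 FC of 1.23, 1.25 and 0.81 against 3.24, 2.36 and 4.04 of the downstream genes. These 6 pairs were chosen after their values were seen.

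**Figure D4:**
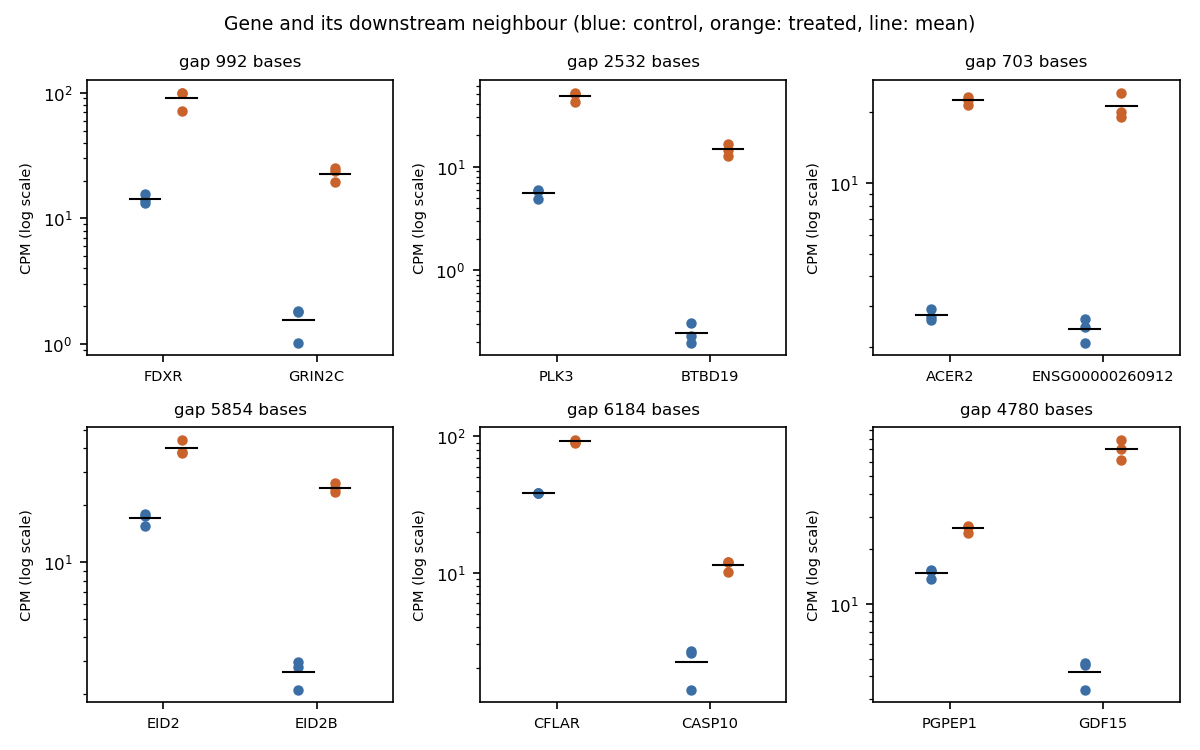
CPM (vertical, log scale) of an upstream gene and its downstream neighbour of the same strand in the 3 untreated (blue) and 3 treated (orange) A2780 libraries of 12 h, 1 panel for each of 6 pairs, with the means as lines and the gap between the genes above. Both genes of each pair rose, and the mean treated level of the downstream gene exceeded that of the upstream gene only for GDF15.

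Whether the response differed in the platinum-resistant line was tested with the interaction of line and treatment at 12 h, which passed the threshold for 23.7% of the genes. Of these 4790 genes, 2826 had a more positive response in A2780. Values below are the difference in log2 FC, A2780 minus A2780cis. Of 34 death receptor and NF-kB genes, 16 passed, 15 of them with a more positive response in A2780, where the median was 0.64 against -0.04. FAS rose more in A2780 (difference 2.14, SE 0.18, adjusted p = 9.65e-09, log2 FC in A2780cis = 0.61), and so did BIRC3 (difference 2.10, SE 0.23, adjusted p = 3.36e-07) and TNFAIP3 (difference 2.02, SE 0.36, adjusted p = 3.15e-04). Of 67 G2/M genes, 51 passed, and 50 of these were more positive in A2780, that is, had fallen less or not at all, with medians of -0.73 and -1.28. CDC20 had log2 FC of -1.86 and -2.93 (difference 1.08, SE 0.15, adjusted p = 2.05e-05), and TOP2A of -1.13 and -1.99 (difference 0.86, SE 0.16, adjusted p = 4.83e-04). In 7 lists, none of the called members was more positive in A2780. Among these were cytosolic ribosomal proteins (61 of 84 called, medians -0.13 and 0.50), nuclear genes of oxidative phosphorylation (47 of 76, -0.01 and 0.59), mitochondrial genome protein genes (9 of 13, 0.09 and 0.58) and interferon-response genes (20 of 44, -0.04 and 0.73), and the other lists were replication-dependent histones (12 of 27), spliceosomal small nuclear RNAs (14 of 36) and HOX genes (2 of 22, a share below that of all genes). Scaled by library size alone, 51, 39, 8, 17, 11, 13 and 3 members of these lists were called, of which 1 interferon-response gene and 1 HOX gene were more positive in A2780, as was 1 gene of each of these 2 lists without treated replicate 3 and 1 interferon-response gene without untreated replicate 1 or without a filter on low counts. At 12 h, rRNA transcripts took 0.0467%, 0.0395% and 0.0575% of the counts in treated and 0.000941%, 0.00152% and 0.00115% in untreated A2780cis libraries. In A2780 the shares were 0.00137%, 0.041% and 0.0306% in the untreated and 0.0355%, 0.0055% and 0.00155% in the treated libraries. The summed small nuclear RNAs had 13, 77.5 and 51.7 CPM and 79.8, 23.6 and 19.7 CPM in the same order. Within each of these groups, both measures ranked the libraries alike. Whether the line difference of the small nuclear RNAs varies with these shares was not tested.

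**Figure D5:**
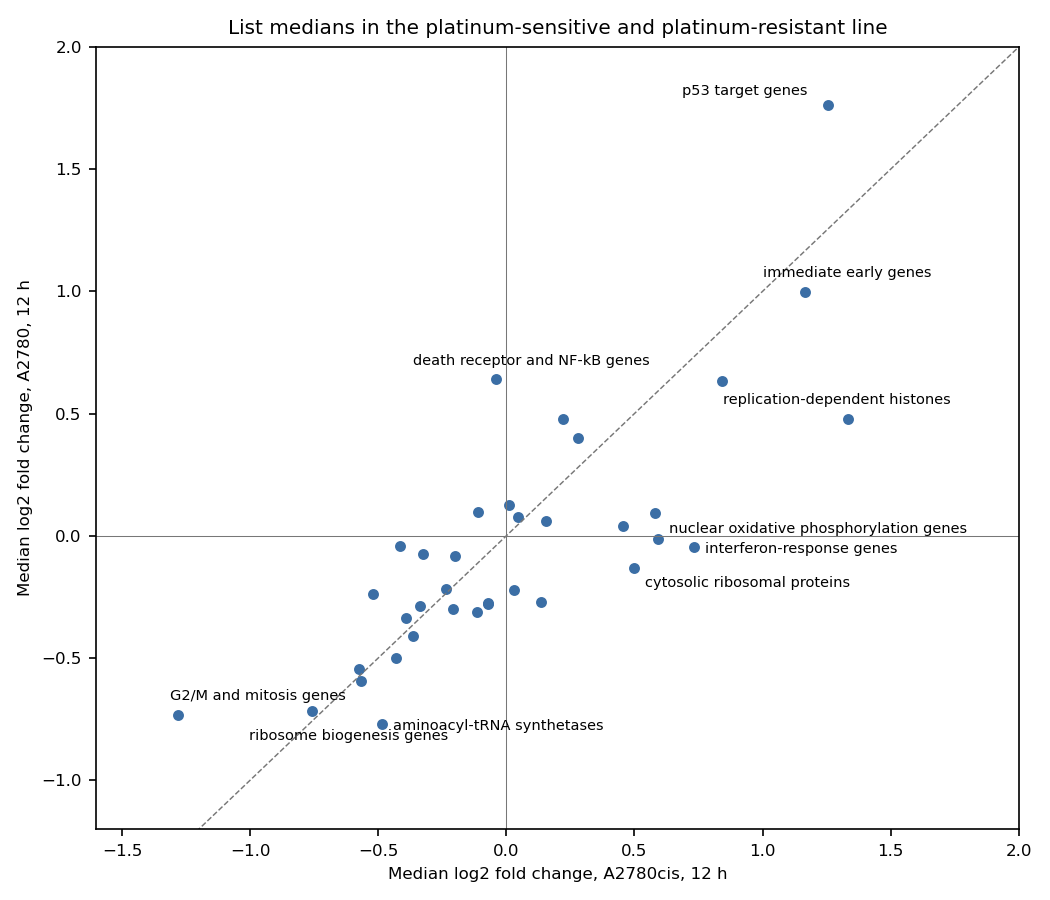
Median log2 FC after 12 h of 37 gene lists in A2780 (vertical) against A2780cis (horizontal), 1 point for each list, with equal medians on the dashed line. Interferon-response genes, nuclear oxidative phosphorylation genes and cytosolic ribosomal proteins lie near 0 in A2780 and between 0.50 and 0.73 in A2780cis, and death receptor and NF-kB genes lie at 0.64 in A2780 and near 0 in A2780cis.

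Among genes whose log2 CPM averaged 4 or more over the libraries of both lines, SMAD3, KITLG, FAS, ZNF600 and AHNAK had the largest differences toward A2780. SMAD3, a transducer of TGF-β signals, had 16.2, 16.5 and 18.9 CPM in the untreated and 66.3, 67 and 62.2 CPM in the treated A2780 libraries, without overlap (log2 FC = 1.92, SE 0.11, adjusted p = 3.57e-13), and a log2 FC of -0.47 in A2780cis (difference 2.39, SE 0.16, adjusted p = 1.96e-10). KITLG, the ligand of the KIT receptor, had 18, 18 and 12.4 CPM against 25.6, 21 and 23.8 CPM, also without overlap, and a log2 FC of 0.54 against -1.61 (difference 2.16, SE 0.22, adjusted p = 1.78e-07). Without untreated replicate 3 of A2780, the response of KITLG in A2780 was 0.37 with an adjusted p of 0.0733. AHNAK, a giant scaffold protein, had log2 FC of 1.85 and -0.24 (difference 2.10, SE 0.23, adjusted p = 4.59e-07), and ZNF600 of 2.59 and 0.49 (difference 2.11, SE 0.16, adjusted p = 2.28e-09). TP53INP1, with one of the largest increases of A2780, averaged below that level and had a larger difference, with a log2 FC of -0.18 in A2780cis (difference 3.72, SE 0.37, adjusted p = 9.70e-08), where its mean was only 0.561 CPM in the untreated and 0.505 CPM in the treated libraries. In the other direction, 4 lncRNA genes annotated beside rRNA genes on chromosome 21 had the lowest fitted differences, but their levels did not follow the groups, with 72.9, 774 and 755.3 CPM in the untreated and 668, 138 and 84.6 CPM in the treated A2780 libraries for ENSG00000280614. They were followed by TAP1, the peptide transporter of antigen presentation, which had 209, 206 and 236 CPM against 266, 273 and 267 CPM in A2780 (log2 FC = 0.31, SE 0.09, adjusted p = 0.00473) and a log2 FC of 2.72 in A2780cis (difference -2.41, SE 0.14, adjusted p = 5.12e-12).

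The difference between 12 h and 6 h in A2780 also passed the threshold for 23.7% of the genes, 2160 of them with a more positive and 2633 with a more negative response at 12 h. This difference ran with GC content in the classes given above, which hold protein-coding genes over a limit of mean level. Its median was 0.12 below 40% GC and -0.51 with at least 60%. The median log2 FC of 6 h went from -0.23 to 0.46 over the same classes while that of 12 h stayed between -0.11 and -0.04. The part of GC content in single differences was not tested. Among p53 target genes 31 of 57 differed, all more positive at 12 h, with medians of 1.07 at 6 h and 1.76 at 12 h. KCTD11 had log2 FC of 1.23 at 6 h and 3.35 at 12 h (difference 2.12, SE 0.21, adjusted p = 3.17e-07). NEAT1 had -0.15 and 1.68 (difference 1.84, SE 0.21, adjusted p = 1.96e-06), and the zinc exporter SLC30A1 had 0.63 and 2.28 (difference 1.65, SE 0.25, adjusted p = 5.82e-05). KCTD11, NEAT1 and SLC30A1 rose mainly between the 2 times, whereas the p53 target list was already higher at 6 h. Of 60 heat shock and chaperone genes, 41 differed, 4 of them toward higher values, with medians of -0.12 at 6 h and -0.60 at 12 h. Of 98 ribosome biogenesis genes 58 differed, all but 1 more negative at 12 h (-0.20 and -0.72), and of 21 aminoacyl-tRNA synthetases 15, all more negative (-0.13 and -0.77). HSPA8 had log2 FC of -0.87 and -3.45 (difference -2.58, SE 0.17, adjusted p = 1.07e-09). FASN, the fatty acid synthase, had 0.22 and -1.73 (difference -1.95, SE 0.43, adjusted p = 0.00194), with 171, 184 and 189.7 CPM in the untreated and 33, 61.2 and 69.2 CPM in the treated libraries of 12 h, lowest in replicate 1. In contrast, of 67 G2/M genes 16 differed, 7 toward higher values, and the medians were -0.74 and -0.73, so that the decrease of this list was present at 6 h.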

How the data were processed

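RNA-seq of both lines at both times, with and without 5-FdU-ECyd at 1 μM, was analysed from the table of 24 libraries in 8 groups of 3. The authors deposited expected counts: per the labels and the methods of the study, reads were trimmed with Trimmomatic, aligned with STAR 2.5.2b to GRCh38.p7 and counted on exons with featureCounts, with fractions for reads with several alignments and with overlapping genes allowed. The strand setting was not given in the sources used here. The labels name single reads and the study paired-end reads. Counts were rounded and analysed with R 4.3.3 and edgeR 4.0.16. The genes kept by filterByExpr (at least 10 counts, total of at least 15) were scaled by TMM before a quasi-likelihood model of 8 group means was fitted (16 residual degrees of freedom). Two-sided p-values of edgeR's quasi-likelihood test were adjusted by the method of Benjamini and Hochberg, and genes with 0.05 or less were called. Treated and untreated A2780 libraries of 12 h were compared, and interactions tested the difference from A2780cis and from 6 h. Standard errors (SE) are those of the log2 FC.

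GENCODE release 44 held 56948 of the 63299 gene identifiers. Gene lists are described by counts and medians, without a test of the list. The members and lists were chosen with earlier results of these data known. Named were the 10 largest increases and decreases whose log2 CPM averaged 4 or more, with at least 4 counts in some library of each group and no overlap of CPM between the groups, up to 2 called members of a list in each direction with a mean of at least 1 CPM and its most abundant one, the 5 largest changes in each direction of lncRNA genes (mean log2 CPM of at least 2) and of each interaction, and the 5 genes with the most counts. Not all of these are printed, and some are not reported here. The members of the neighbouring pairs, CFLAR, VIM, CDH2, ZEB1 and the interactions of genes named by another part of the rule were added after their values were seen. The classes by level at 6 h, by GC content and by strand overlap were also chosen after the data were seen. As alternatives, scaling used the size factors of DESeq2 or library size alone, and further fits used no filter, unrounded counts, a block by replicate number, the 6 compared libraries alone, the DESeq2 1.42.0 Wald test, removal of lncRNA and rRNA genes and each library left out. The procedure was tested on simulated data. Promoter and microRNA sequences are those of RefSeq on GRCh38.p14. Summaries used Python 3.11.15 with pandas 2.3.3, and plots matplotlib 3.10.9.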

Additional observations from a re-analysis of the deposited data

Results flagged for a closer look

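The response of A2780 at 12 h differed from that of A2780cis past the threshold, by the interaction of line and treatment, for 4790 genes, and from that of A2780 at 6 h for 4793 genes. The differences of the genes named above (A2780 minus A2780cis, log2 scale) were 2.14 for FAS, 2.10 for BIRC3, 2.02 for TNFAIP3, 1.08 for CDC20, 0.86 for TOP2A, 2.39 for SMAD3, 2.16 for KITLG, 2.10 for AHNAK, 2.11 for ZNF600, 3.72 for TP53INP1 and -2.41 for TAP1. Those between the times (12 h minus 6 h) were 2.12 for KCTD11, 1.84 for NEAT1, 1.65 for SLC30A1, -2.58 for HSPA8 and -1.95 for FASN. FASN had 33, 61.2 and 69.2 CPM in the treated libraries of 12 h, with the lowest value in replicate 1, the library low in GC-rich genes, and the part of GC content in its difference was not tested.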

How the results depend on the processing

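Of the 4 counts of genes (called, called with an absolute log2 FC of at least 2, differing between the lines, differing between the times), only the second moved by over 1.5 times, to 1705 genes without a filter on low counts, against 965. With each of the 6 libraries left out in turn, the numbers ranged from 9910 to 10723, from 997 to 1121, from 3919 to 4388 and from 3751 to 4400. With the replicate block, that is, the replicate number as a further term, they were 11315, 969, 5129 and 5168. The numbers do not pair the samples: the correlations of the deviations of equally numbered libraries were -0.196, -0.117 and -0.0352. The DESeq2 Wald test called 10519 genes. Among the recomputed values of the single genes named, 1921 kept their direction and their side of the threshold, 9 lost and 5 gained a call, and 0 changed sign. The call of POLR2A, not past the threshold, was gained without a filter (-0.37, adjusted p = 0.00319) and in the fit of the 6 libraries (-0.33, adjusted p = 0.0399), and that of EEF1A1 in both (adjusted p = 0.0363 and 0.00571) and without treated replicate 1 (0.0483). The cause was not tested.

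The medians of 12 lists, between -0.22 and 0.12 as reported, changed sign. Scaled by library size alone, which moved the median of all genes from 0.02 to 0.24 and the share of higher genes among those called from 52.3% to 70.7%, they were 0.15 for G1/S and replication, 0.18 for DNA repair, 0.14 for SR splicing factors, 0.18 for interferon-response genes, 0.088 for cytosolic ribosomal proteins, 0.21 for nuclear oxidative phosphorylation and 0.0094 for axon guidance. With single libraries left out, they ranged from -0.0085 (without treated replicate 1) to 0.117 for the BCL2 family and caspases, from -0.0034 (without treated replicate 1) to 0.177 for nucleotide metabolism, from -0.014 (without treated replicate 2, and -0.011 without treated replicate 1) to 0.047 for HOX genes, from -0.012 (without untreated replicate 2) to 0.057 for NRF2 and glutathione genes and from -0.022 (without treated replicate 3, and -0.00052 without untreated replicate 1) to 0.169 for small nuclear RNAs. Some other lists kept a small negative median by library size alone, -0.017 for RNA exosome and decay and -0.0017 for snoRNA host genes. The median was -0.058 for ATF4 genes, -0.079 for ER chaperones, -0.048 for proteasome subunits and -0.056 for mitochondrial ribosomal proteins. For cholesterol genes it was -0.067 and for glycolysis genes -0.091. Depth limits the values of lncRNA and histone genes with a few CPM, and the p-values cover only the spread between replicate libraries of this series.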

Other observations

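By chromosome, the median log2 FC of nuclear protein-coding genes ran from -0.19 on chromosome 18 (44 higher and 79 lower of 196) to 0.10 on chromosome 19.

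The promoters of 33 of the 45 tested immediate early genes were in the RefSeq table. The letters TGACGTCA of the cyclic AMP response element were found in 12.1% of them, against 3.14% of the promoters of tested protein-coding genes, and TATAAA in 24.2% against 5.84%.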
